A study of Mus musculus with 6 samples.

Results

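The 10 genes described here encode the adhesion proteins and transcription factors by which an epithelial cell is told from a mesenchymal one: the classical cadherins Cdh1, Cdh2 and Cdh3, the epithelial surface protein Epcam, the intermediate filament protein Vim, and the factors Zeb1, Zeb2, Snai1, Snai2 and Twist1. They were chosen by symbol, with the values of the same comparison already known, so their levels and fold changes below are a description and support nothing by themselves. All 10 were found among the 56980 gene identifiers of the count table, and all 10 passed the filter on low counts that left 17901 genes to be tested.

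Messenger RNA was sequenced from 6 mouse lung tumours labelled small cell lung cancer, 3 with genotype Keap1 knockout and 3 with genotype Control. Both groups carry the background labelled QKO, which the labels do not spell out. The count columns are headed QKO for controls only and KP for knockouts, and KP is not spelled out either. Tumours were collected about 4 months after virus was given to the animals. How Keap1 was inactivated, the ages of the mice, and whether the samples came from separate animals are not stated, so any p-value measures the spread between these samples. KEAP1 normally targets NRF2, the transcription factor of the antioxidant response, for breakdown. Total counts ran from 21801647 to 23759892 in the Keap1 knockout libraries and from 18731515 to 20065069 in the control libraries. Levels are given in CPM, reads scaled to a common TMM-adjusted library total, and libraries are named knockout 1 to 3 and control 1 to 3. Keap1 itself stood at 67.5, 93.0 and 79.9 CPM in knockouts 1 to 3, against 78.4, 74.5 and 58.7 CPM in controls 1 to 3, so its RNA level does not tell the groups apart. Nqo1, a quinone reductase gene driven by NRF2, stood at 864, 1324 and 1078 CPM in knockouts 1 to 3, against 49.6, 15.0 and 3.58 CPM in controls 1 to 3.

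Cadherins are calcium-dependent adhesion molecules whose cytoplasmic tails bind catenins and thereby the actin cytoskeleton. Epithelial cells join through E-cadherin, and in development, wound repair and some carcinomas cells can lose it and gain N-cadherin and vimentin, which is called the cadherin switch. The ZEB, SNAI and TWIST factors are known to drive this change. The ZEB and SNAI factors do so as zinc finger proteins that bind E-box sequences in epithelial promoters, that of E-cadherin among them, and repress them. Neuroendocrine tumours and neural tissue also express N-cadherin.

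The control libraries differed from each other in cell type markers, which bears on every value below. Of 6 basal squamous markers, summed levels were 2.37 to 71.6 CPM in knockouts, against 7309 CPM in control 1, 15.8 CPM in control 2 and 9.86 CPM in control 3. The 10 fibroblast markers summed to between 418 and 1183 CPM in knockouts, against 535 CPM in control 1, 34805 CPM in control 2 and 5915 CPM in control 3. Most of the control 2 sum was Col1a1 and Col1a2, at 20424 and 12074 CPM. Lum, Pdgfra, Pdgfrb, Thy1 and Fap were also highest in control 2, whereas Col3a1, Dcn and Postn were highest in control 3. The 8 small cell neuroendocrine markers summed to between 54.5 and 214 CPM in knockouts, against 106 CPM in control 1, 72.9 CPM in control 2 and 4839.9 CPM in control 3. Of the defining neuroendocrine factors, Neurod1 had no read in any knockout and stood at 0.152, 0.198 and 95.7 CPM in controls 1 to 3. Insm1 stood at 0.0933, 0 and 0 CPM in knockouts 1 to 3, against 18.0, 1.39 and 622 CPM in controls 1 to 3. In the 5 libraries other than control 3, RNA of these 2 factors of the labelled tumour type was thus low or at 0. The tissue was sequenced in bulk, so fewer cells of a type and less RNA per cell cannot be told apart.

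**Figure D1:**
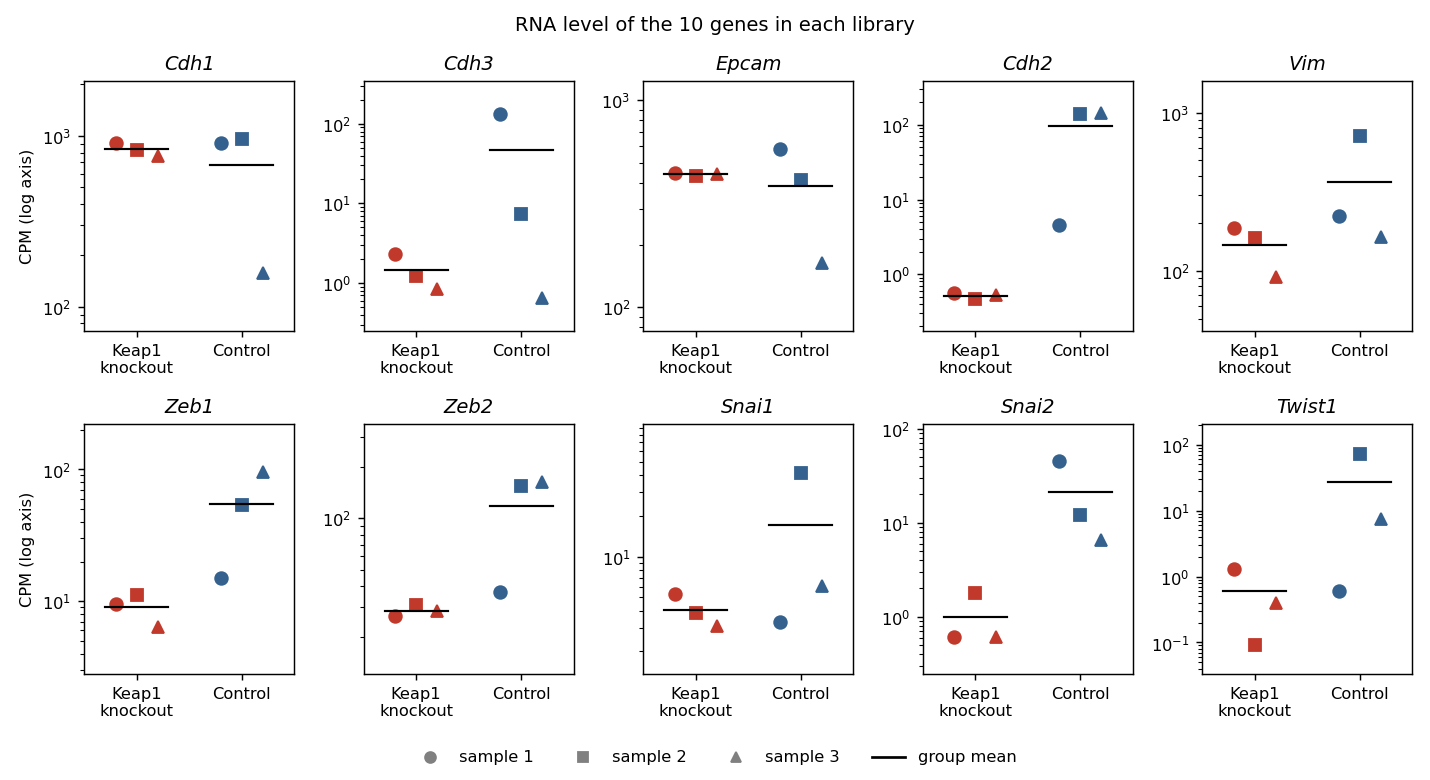
Level of each of the 10 genes in CPM on a log axis, with 1 symbol per library, the Keap1 knockout libraries at left and the control libraries at right of each panel, and a line at the group mean. Cdh1 and Epcam are level in 5 libraries and lowest in control 3, whereas Cdh2 lies below 1 CPM in every knockout and at 141 and 145 CPM in controls 2 and 3.

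Among the epithelial genes, E-cadherin RNA was at the same height in all knockouts and in all but 1 of the controls. Cdh1 (ENSMUSG00000000303), which encodes E-cadherin, stood at 912, 829 and 761 CPM in knockouts 1 to 3, against 912, 957 and 158 CPM in controls 1 to 3. Controls 1 and 2 reached the knockout range, and control 3 was the lowest of the 6 libraries. Group means were 834 ± 75.5 CPM in knockouts and 676 ± 449 CPM in controls (SD, n = 3 each), and the log2 fold change was 0.30 ± 0.63 (SE). Without control 3 the log2 fold change was -0.16, so its direction rested on that library.

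Epcam (ENSMUSG00000045394), an adhesion protein of the surface of most simple epithelia, followed the same course. It stood at 447, 429.6 and 441 CPM in knockouts 1 to 3, against 582, 413 and 163 CPM in controls 1 to 3. The knockouts lay within 1.04-fold of each other, and the controls spanned 3.56-fold with control 3 again lowest. The log2 fold change was 0.19 ± 0.45 (SE), and without control 3 it was -0.18. 

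Cdh3 (ENSMUSG00000061048), which encodes P-cadherin, the cadherin of basal epithelial layers, behaved otherwise. Its levels were 2.28, 1.24 and 0.835 CPM in knockouts 1 to 3, against 132, 7.43 and 0.647 CPM in controls 1 to 3. Control 1, the library rich in basal squamous markers, held 17.8 times the level of the next library, and control 3 lay below every knockout, so the groups overlapped. The log2 fold change of -5.01 ± 1.86 (SE) became -1.46 without control 1. The part of squamous cells in this difference was not tested.

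The mesenchymal cadherin showed the widest gap between the groups. Cdh2 (ENSMUSG00000024304), which encodes N-cadherin, was counted in 12, 10 and 12 reads in knockouts 1 to 3, against 90, 2849 and 2917 reads in controls 1 to 3. These are 0.560, 0.458 and 0.527 CPM in the knockouts, against 4.57, 141 and 145 CPM in the controls. Every control lay above every knockout, the lowest of them by 8.16 times the highest knockout, and controls 2 and 3 stood far above control 1. Group means were 0.515 ± 0.0520 CPM in knockouts and 97.0 ± 80.1 CPM in controls (SD, n = 3 each), and the log2 fold change was -7.54 ± 1.40 (SE). Leaving out any single library moved this value between -8.10 (without control 1) and -7.13 (without control 3).

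Because gene length affects read counts, cadherins were set beside each other in CPM per kilobase of annotated exon. On this scale Cdh1 was first of 22 cadherin genes in every library. It made up 88.4%, 86.9% and 89.2% of the summed cadherin level in knockouts 1 to 3, against 76.0%, 63.1% and 24.6% in controls 1 to 3. Cdh2 made up 0.0307%, 0.0272% and 0.0350% in knockouts 1 to 3, against 0.216%, 5.28% and 12.8% in controls 1 to 3. The level of Cdh1 per kilobase was 2875, 3192 and 2546 times that of Cdh2 in knockouts 1 to 3, against 352, 12.0 and 1.92 times in controls 1 to 3. No library had more Cdh2 than Cdh1 per kilobase, and control 3 came nearest. Control 2 combined the highest Cdh1 level of the 6 libraries with a Cdh2 level close to that of control 3, and the bulk values do not tell whether the same cells held both.

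**Figure D2:**
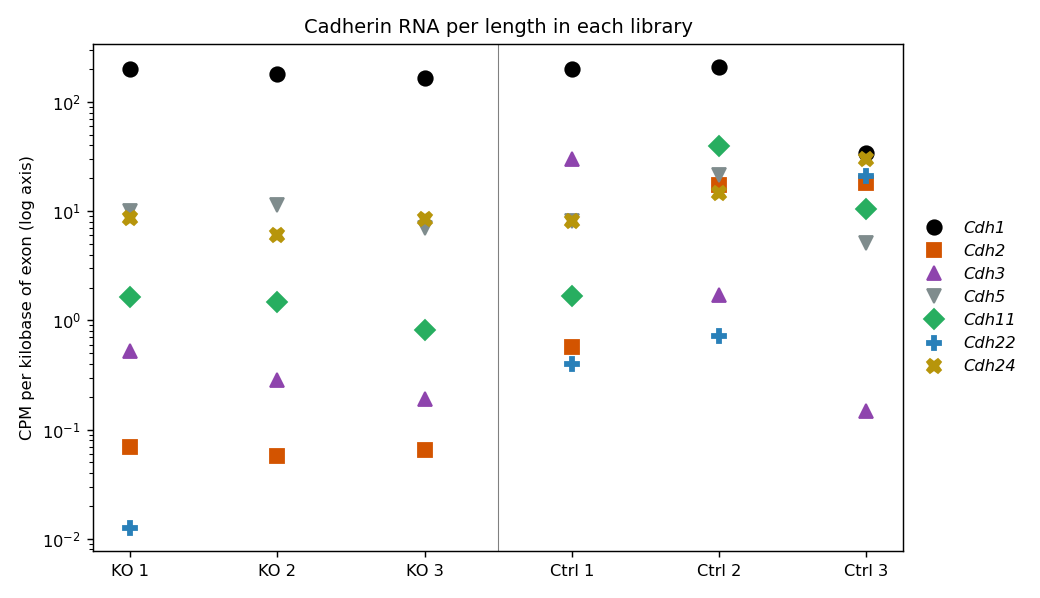
Level of 7 cadherin genes in CPM per kilobase of exon on a log axis, by library, with the Keap1 knockout libraries at left and the control libraries at right (a gene without reads has no symbol). Cdh1 is at the top throughout, at 166 to 199 in knockouts and at 199, 209 and 34.5 in controls 1 to 3, and each control has a different cadherin beneath it.

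Each control also had its own second cadherin on the per-kilobase scale. In knockouts 1 and 2 the second was Cdh5, the cadherin of endothelial cells, at 10.1 and 11.5 CPM per kilobase, and in knockout 3 it was Cdh24 at 8.49. In control 1 it was Cdh3 at 30.2 CPM per kilobase. In control 2 it was Cdh11, a cadherin of mesenchymal and osteoblast-lineage cells, at 39.9, against 0.824 to 1.63 in knockouts. In control 3 it was Cdh24 at 30.4, followed by Cdh22 at 21.1 and Cdh2 at 18.0 CPM per kilobase.

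Vim (ENSMUSG00000026728), the intermediate filament gene of mesenchymal cells, leukocytes and endothelium, was present in every library. It stood at 187, 161 and 92.3 CPM in knockouts 1 to 3, against 222, 715 and 164 CPM in controls 1 to 3. Control 2 was 3.22 times above the next library, and the groups overlapped, since control 3 lay within the knockout range. Means were 147 ± 49.1 CPM in knockouts and 367 ± 303 CPM in controls (SD, n = 3 each), and the log2 fold change was -1.32 ± 0.62 (SE), or -0.37 without control 2. Control 2 also had the largest fibroblast marker sum, most of it Col1a1 and Col1a2 RNA. Knockout 1 had both the most Vim and the largest fibroblast marker sum (1183 CPM) of the knockouts. Control 3 went against this order, with the second largest fibroblast sum (5915 CPM) and less Vim than control 1 or knockout 1. The 8 leukocyte markers summed to 491 to 1090.0 CPM in knockouts and to 671, 1025 and 161 CPM in controls 1 to 3. Lyz2 made up most of this sum in every library. Ptprc, Csf1r and Adgre1 were lower in every knockout than in every control, as 19.1% of all tested genes were, and peaked in control 2. The other listed leukocyte markers overlapped between the groups. The 8 endothelial markers summed to 199 to 306 CPM in knockouts and to 257, 547 and 182 CPM in controls 1 to 3. The part of these cell types in the level of Vim was not tested.

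The ZEB factors were lower in every knockout than in every control. Zeb1 (ENSMUSG00000024238) stood at 9.47, 11.2 and 6.37 CPM in knockouts 1 to 3, against 15.0, 53.9 and 96.2 CPM in controls 1 to 3. Zeb2 (ENSMUSG00000026872) stood at 26.5, 30.9 and 28.7 CPM in knockouts 1 to 3, against 36.7, 154 and 163 CPM in controls 1 to 3. Control 1 lay only 1.34 times above the highest knockout for Zeb1 and 1.19 times for Zeb2, and most of the gap came from controls 2 and 3. Log2 fold changes were -2.61 ± 0.68 for Zeb1 and -2.04 ± 0.55 for Zeb2 (SE). In control 3 the highest ZEB levels went with the lowest Cdh1 level, whereas in control 2 ZEB levels of 53.9 and 154 CPM stood beside the highest Cdh1 level. Antisense or overlapping genes share 1.93% of the exon bases of Zeb1 and 3.27% of those of Zeb2, and whether counting used strand is not given in the sources used here.

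The SNAI factors parted company. Snai2 (ENSMUSG00000022676), or SLUG, which basal epithelial cells also express, stood at 0.606, 1.79 and 0.615 CPM in knockouts 1 to 3, against 44.8, 12.2 and 6.57 CPM in controls 1 to 3. The groups did not overlap, and the lowest control was 3.68 times above the highest knockout. Control 1, rich in basal squamous markers, was highest, and the log2 fold change of -4.39 ± 0.96 (SE) was -3.21 without it. Snai1 (ENSMUSG00000042821), or SNAIL, stood at 5.27, 3.85 and 3.08 CPM in knockouts 1 to 3, against 3.30, 41.9 and 6.07 CPM in controls 1 to 3. Control 1 lay inside the knockout range, control 3 just above it, and control 2 at 6.89 times the next library. The log2 fold change of -2.07 ± 1.00 (SE) shrank to -0.18 without control 2.

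Twist1 (ENSMUSG00000035799), a basic helix-loop-helix factor of mesoderm and neural crest, spanned 797-fold between its highest and lowest library, the lowest being knockout 2 with 2 reads. It was counted in 28, 2 and 9 reads in knockouts 1 to 3, against 12, 1473 and 148 reads in controls 1 to 3. These counts are 1.31, 0.0916 and 0.396 CPM in knockouts and 0.609, 73.0 and 7.37 CPM in controls. Control 1 lay within the knockout range. The log2 fold change was -5.49 ± 1.91 (SE) and -2.70 without control 2. Knockout 1 was the highest knockout, and the 2 and 9 reads of knockouts 2 and 3 are few.

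Promoter sequence was at hand for 5 of the 10 genes, Epcam, Vim, Zeb2, Snai1 and Twist1, as 8 windows from 250 bases before to 50 bases after an annotated start (RefSeq, build GRCm38.p6). They were searched for CACCTG on either strand, which reads CAGGTG when it lies on the other strand and is the E-box form bound by ZEB and SNAI zinc fingers. The windows of Epcam and Snai1 held it and are shown for that reason, the epithelial gene with 2 copies, whose first bases lie 187 and 19 bases before the start, and the repressor gene with 1 copy 126 bases before the start. Capitals mark the motif.
Epcam (chr17:87635729-87636028, plus strand, GRCm38.p6): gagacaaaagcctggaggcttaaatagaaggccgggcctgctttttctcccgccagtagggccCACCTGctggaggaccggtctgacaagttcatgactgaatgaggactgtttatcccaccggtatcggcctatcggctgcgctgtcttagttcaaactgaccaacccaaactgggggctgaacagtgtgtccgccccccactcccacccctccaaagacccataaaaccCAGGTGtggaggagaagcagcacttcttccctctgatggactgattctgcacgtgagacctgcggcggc
Snai1 (chr2:167537945-167538244, plus strand, GRCm38.p6): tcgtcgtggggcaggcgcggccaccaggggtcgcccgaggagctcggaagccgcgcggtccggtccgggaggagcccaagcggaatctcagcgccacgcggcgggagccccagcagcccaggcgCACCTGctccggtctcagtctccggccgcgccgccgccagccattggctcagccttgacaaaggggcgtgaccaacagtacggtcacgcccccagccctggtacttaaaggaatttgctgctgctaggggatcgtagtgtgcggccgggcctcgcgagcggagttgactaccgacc
The 6 other windows, of Vim, Twist1 and Zeb2, held none. Of all 32851 promoter windows of this length, 20.2% held the motif. The core of the antioxidant response element that NRF2 binds, TGACNNNGC on either strand, was found in 1 of the 8 windows, that of Twist1, and in 12.4% of all windows. A match is a match of letters, and these data hold no measurement of binding.

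**Figure D3:**
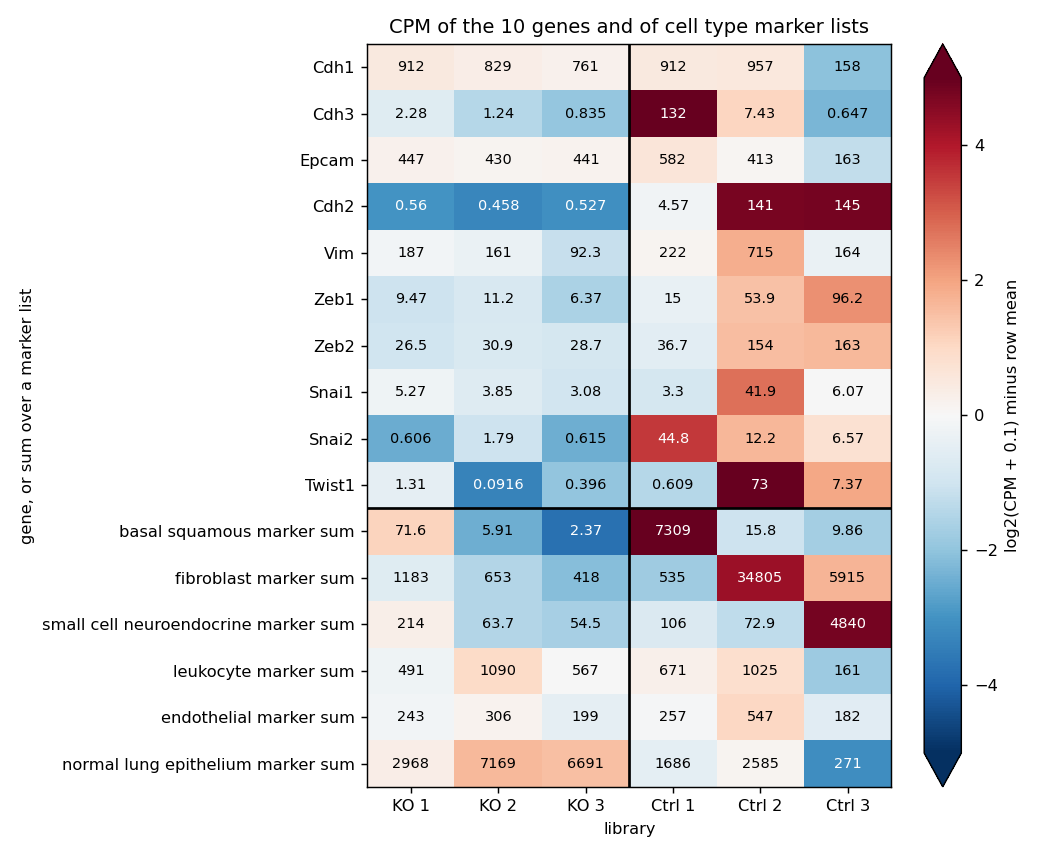
CPM of the 10 genes and, under the line, summed CPM of marker lists of 6 cell types, with the Keap1 knockout libraries (KO) at left and the control libraries (Ctrl) at right, and colour for log2(CPM + 0.1) minus the row mean. Cdh3 and Snai2 peak in control 1 with the basal squamous sum of 7309, Vim, Snai1 and Twist1 in control 2 with the fibroblast sum of 34805, and Cdh2, Zeb1 and Zeb2 in control 3 with the neuroendocrine sum of 4839.9, although Cdh2 and Zeb2 are nearly as high in control 2, where that sum is 72.9. Most of the fibroblast sum of control 2 is Col1a1 and Col1a2 RNA. The epithelial genes Epcam and Cdh1 also peak in controls 1 and 2.

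Set side by side, the 10 genes peaked in different control libraries. Cdh3, Epcam and Snai2 were highest in control 1, Cdh1, Vim, Snai1 and Twist1 in control 2, and Cdh2, Zeb1 and Zeb2 in control 3. None was highest in a knockout. A peak in a control was common among all genes tested, since control 1 was the highest library for 18.3%, control 2 for 14.2% and control 3 for 29.7%. The margin over the next library was only 1.03 times for Cdh2, 1.05 times for Cdh1 and 1.06 times for Zeb2. All 10 had a larger standard deviation of log2 CPM among controls than among knockouts, as did 83.5% of all genes tested, with medians of 0.397 in knockouts and 1.44 in controls for the 10 genes, beside 0.222 in knockouts and 0.578 in controls over all genes tested. Of the 10 genes, 4 (Cdh2, Zeb1, Zeb2 and Snai2) had every knockout below every control, where 19.1% of all tested genes did, and none had every knockout above, where 21.5% did, so that groups without overlap made up 40.7% of all tested genes. The 10 log2 fold changes had a median of -2.34, beside -0.08 over all genes tested.

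In the fit across all genes, edgeR's quasi-likelihood test called 1 of the 10, Cdh2, at an adjusted p below 0.05, where it called 4.31% of all genes tested, 2.42% as higher and 1.89% as lower in knockouts. The authors' deposited table, which was made with DESeq2, puts 6 of the 10 below 0.05, namely Cdh2, Cdh3, Zeb1, Zeb2, Snai2 and Twist1, all lower in knockouts, where 17.8% of its 22441 genes lie below 0.05 in either direction and 10.7% as lower in knockouts. Nothing is read from these counts, because the genes were picked with this comparison known. Cdh2 was not called by edgeR without control 2 or without any 1 knockout, nor without the filter on low counts, nor by limma voom.

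**Figure D4:**
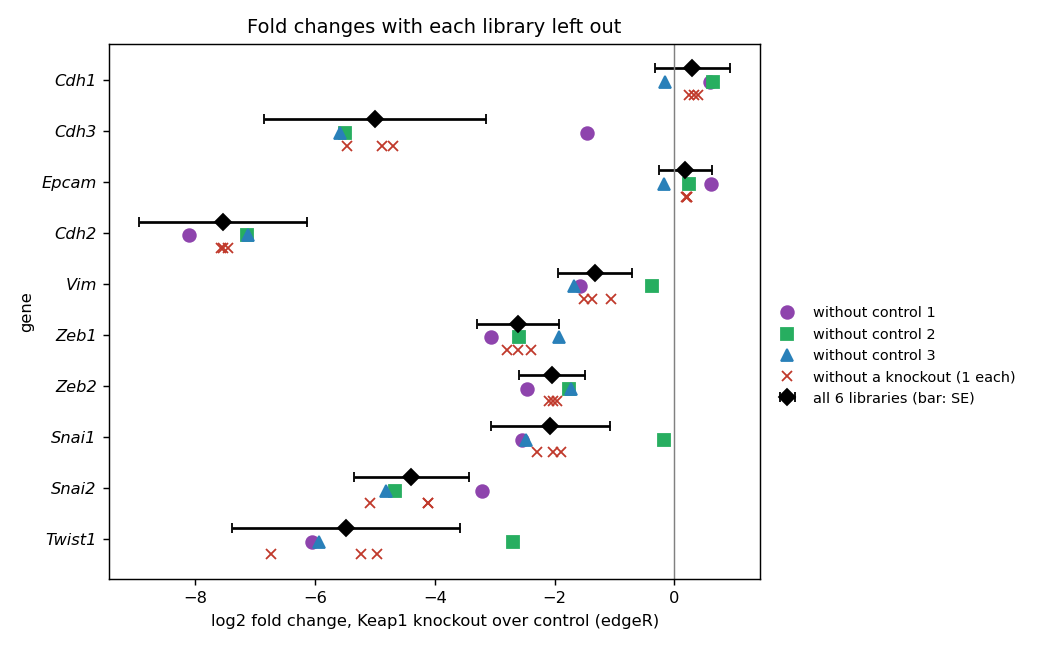
Log2 fold change of Keap1 knockout over control for each of the 10 genes by edgeR, from all 6 libraries (diamond, bar for the SE) and with each library left out in turn. Cdh2 stays between -8.10 and -7.13, Cdh3 moves to -1.46 without control 1, and Vim, Snai1 and Twist1 move to -0.37, -0.18 and -2.70 without control 2.

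Genes whose profile over the 6 libraries lay closest to 3 of the members were ranked by the root mean square difference of centred log2 CPM, among 12635 genes of at least 5 CPM on average. Ptpn18, Llgl2 and Lnx2 were among the 4 nearest to Cdh1, at 0.117 to 0.126 log2 units. Llgl2, an apical-basal polarity gene, stood at 111, 94.7 and 97.4 CPM in knockouts and at 126, 106 and 17.4 CPM in controls 1 to 3. Nearest to Cdh2 were Asphd2, Foxd1, Caln1 and Sdk2 at 0.603 to 0.946, and Asphd2 stood at 0.466, 0.229 and 0.0879 CPM in knockouts and at 2.39, 36.4 and 84.5 CPM in controls 1 to 3. The difference is not scaled to a gene's own range, which was 317-fold for Cdh2 and 6.07-fold for Cdh1. Distances from different members are therefore not comparable. Nearest to Vim were Padi2, Emp3, Pstpip1 and Lamb1 at 0.182 to 0.248. Pstpip1, an adaptor gene of blood cells, and Lamb1, a laminin chain gene of basement membranes, both peaked in control 2, at 32.9 and 141 CPM, against 5.19 to 7.33 and 19.3 to 30.6 CPM in knockouts.

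Other genes of the same pathway were taken in 6 lists. Of all genes tested, 30.7% had an unadjusted p below 0.05 by edgeR, 26.6% were called by DESeq2 (14.8% as lower in knockouts) and 5.96% by limma voom (2.25% as lower), and the lists' counts stand beside these shares. Of 19 other cadherins, 10 were tested, and 0 passed by edgeR (5 had an unadjusted p below 0.05) or limma voom, while DESeq2 called 3, all lower in knockouts. The median log2 fold change of the 10 was -2.90, beside -0.08 over all genes tested, and it was -1.63 without control 2 and -4.23 without knockout 1. Cdh22, a cadherin of brain and pituitary, had 1 read in the knockouts together and 1655 in the controls, a ratio of pooled reads per scaled total of 1823 in favour of controls with a 95% interval of 327 to 72029 that covers counting error only. It stood at 78.3 CPM in control 3 and at 1.47 and 2.68 CPM in controls 1 and 2. Cdh6, first described in kidney, stood at 1.03, 0.137 and 0.0879 CPM in knockouts, against 57.1, 7.33 and 5.08 CPM in controls 1 to 3. Neither passed, with adjusted p of 0.0649 and 0.0763 by the edgeR test.

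Catenins tie cadherins to actin, and Ctnnb1, Ctnna1 and Ctnnd1 were counted in every library. Of 18 catenin and partner genes 15 were tested and neither edgeR nor limma voom called any (0 each, though 4 had an unadjusted p below 0.05 by edgeR), and DESeq2 called 3, and their median was -0.32. This median had no stable sign, with 0.35 and 9 of 15 positive without control 1, and 0.06 by limma voom and with the replicate block. The alpha-catenin genes Ctnna2 and Ctnna3 had at most 4 reads in any knockout, against 40, 1 and 1922 reads of Ctnna2 and 0, 4 and 0 reads of Ctnna3 in controls 1 to 3. Arvcf was not analysed here. Ctnnb1, which encodes beta-catenin, stood at 757, 739 and 606 CPM in knockouts, against 956, 1185 and 487 CPM in controls 1 to 3. Ctnna1 (alpha-catenin) and Ctnnd1 (p120-catenin) were lowest in control 3, at 199 and 13.6 CPM, against 615 to 726 and 58.1 to 66.2 CPM in knockouts. Ctnnd2, a neural relative of p120-catenin, had adjusted p of 0.0977 and a log2 fold change of -4.60 ± 1.40 (SE), and Ctnnbip1, an inhibitor of beta-catenin, had adjusted p of 0.113 and -1.23 ± 0.41, both by edgeR.

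None of the 32 genes of tight junctions and epithelial identity passed by edgeR. Of these, 25 had positive log2 fold changes, with a median of 0.64, and 29 were lowest in control 3, where 31.4% of all tested genes were. By edgeR and by limma voom 0 passed, 2 had an unadjusted p below 0.05 by edgeR, and DESeq2 called 1. Prss8, which encodes the membrane protease prostasin, stood at 170.0, 211 and 211 CPM in knockouts, against 26.3, 41.6 and 2.99 CPM in controls 1 to 3 (adjusted p = 0.0859 by edgeR). Grhl3, a grainyhead factor of stratified epithelium, had the reverse sign, with 2.94, 1.19 and 1.58 CPM in knockouts and 56.4, 7.09 and 5.73 CPM in controls 1 to 3, and an adjusted p of 0.0935. Esrp2, a splicing factor of epithelial cells, stood at 187, 186 and 223 CPM in knockouts and at 112, 103 and 5.63 CPM in controls 1 to 3. Without control 3 the list median was 0.19, with 21 of 32 positive, and edgeR then called 4 as higher and 3 as lower in knockouts. Of the 18656 genes tested in that setting, it called 1568 as higher and 1641 as lower. Without control 1 the median was 1.32.

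Of 18 other transition factors 15 were tested and neither edgeR nor limma voom called any (0 each, though 5 had an unadjusted p below 0.05 by edgeR), and DESeq2 called 4. The median was -1.33, and 13 had negative log2 fold changes, while without control 2 the median was -0.62. Foxc1, a forkhead factor of mesenchyme, stood at 4.80, 2.47 and 4.09 CPM in knockouts, against 11.6, 83.1 and 46.3 CPM in controls 1 to 3 (adjusted p = 0.0551 by edgeR). Tcf4, an E-protein that pairs with TWIST1, stood at 50.0, 42.9 and 36.9 CPM in knockouts, against 84.7, 239 and 407 CPM in controls 1 to 3 (adjusted p = 0.0616 by edgeR). Klf8 and Foxq1 were the 2 with positive values, and Foxq1 stood at 235, 336 and 366 CPM in knockouts and at 193, 99.8 and 3.19 CPM in controls 1 to 3, with a log2 fold change of 1.66 ± 1.16 (SE).

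Of 24 mesenchymal cytoskeleton and matrix genes 22 were tested and 21 had negative log2 fold changes, with a median of -1.04. By edgeR and by limma voom 0 passed, 5 had an unadjusted p below 0.05 by edgeR, and DESeq2 called 4. In 18 of the 22 control 2 was the highest library, where 14.2% of all tested genes were, and without control 2 the median was -0.32. Serpine2, an inhibitor of serine proteases, stood at 41.8, 38.7 and 30.5 CPM in knockouts, against 68.8, 770 and 322 CPM in controls 1 to 3, and Loxl2, a collagen cross-linking oxidase gene, at 15.6, 9.80 and 6.90 CPM in knockouts, against 19.5, 85.9 and 24.6 CPM in controls 1 to 3. Their adjusted p were 0.0708 and 0.116 by edgeR. S100a4 and Tagln, commonly used as mesenchymal markers, had at most 2.89 and 0.349 CPM in any library and were not tested. Other annotated genes share 51.7% of the exon bases of S100a4 on its own strand and 67.9% of those of Tagln on the other, so these 2 levels are uncertain.

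In the list of TGF-beta ligands, receptors and SMADs, 2 of 25 genes fell by edgeR and none rose, where 1.89% of all genes tested were called lower, and these were the type I receptor genes Acvr1 and Tgfbr1. Acvr1 stood at 24.1, 23.9 and 22.9 CPM in knockouts, against 49.1, 52.5 and 72.7 CPM in controls 1 to 3. By edgeR the adjusted p was 0.0402, at a log2 fold change of -1.30 ± 0.22 (SE). Tgfbr1, the kinase receptor of TGF-beta itself, stood at 63.2, 49.2 and 61.1 CPM in knockouts, against 106, 194 and 185 CPM in controls 1 to 3. Here the log2 fold change was -1.48 ± 0.28 and the adjusted p 0.0464, again by edgeR. In both genes each control exceeded each knockout. Without control 2 the adjusted p by edgeR were 0.0639 for Acvr1 and 0.0746 for Tgfbr1, and without any 1 knockout they lay between 0.163 and 0.236. The ligand genes Tgfb1, Tgfb2 and Tgfb3 did not pass. Tgfb2 stood at 33.0, 22.4 and 21.4 CPM in knockouts, against 34.7, 25.2 and 219 CPM in controls 1 to 3. DESeq2 called 9 of the 25, where it called 26.6% of all genes, and limma voom called 2. The median of the 25 was -0.73, and -0.37 without control 2.

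**Figure D5:**
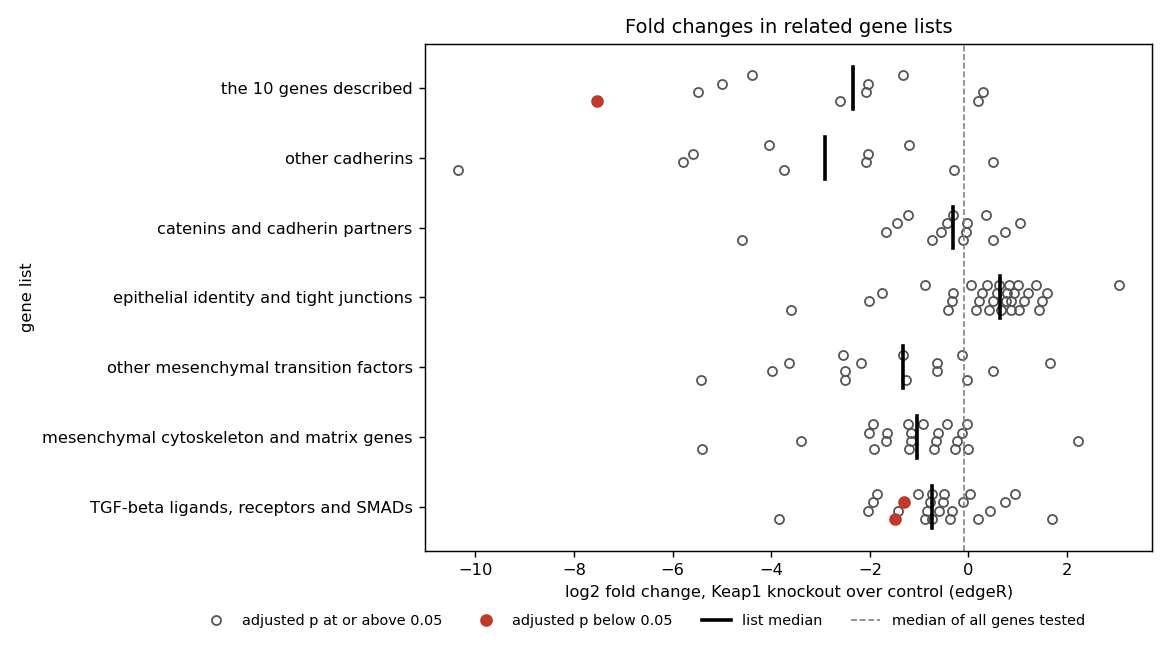
Log2 fold change of Keap1 knockout over control by edgeR for the 10 genes and for the tested genes of 6 related lists, with 1 circle per gene, filled where the adjusted p is below 0.05, a bar at each list's median and a dashed line at the median of all genes tested (-0.08). The epithelial list lies to the right of the dashed line with a median of 0.64, and the filled circles are Cdh2, Acvr1 and Tgfbr1.

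Markers of 2 further cell types were followed. The 6 markers of normal lung epithelium summed to between 2968 and 7169 CPM in knockouts, against 1686, 2585 and 271 CPM in controls 1 to 3, without a call. Most of this sum was Scgb1a1, Sftpc and Sftpb RNA. Scgb1a1 and Sftpb were higher in every knockout than in every control, as 21.5% of all tested genes were. Foxj1 was lower in every knockout, as 19.1% were, and Sftpc, Ager and Hopx overlapped. Of the 43 tested markers of the lung epithelium list and the 5 other lists named above, edgeR and limma voom called 0 each. By edgeR 16 had an unadjusted p below 0.05, and DESeq2 called 12, of which 8 were fibroblast markers. The shares over all genes were 30.7% at an unadjusted p by edgeR and 26.6% by DESeq2. Of 4 mesothelial markers 3 were tested and 2 rose by edgeR, Upk3b (log2 fold change 7.36 ± 1.10, SE, adjusted p = 0.0362) and Lrrn4 (4.37 ± 0.68, adjusted p = 0.0377), while Msln did not pass. Of all genes tested, 2.42% were called higher in knockouts. By edgeR neither Upk3b nor Lrrn4 passed without control 1 (adjusted p of 0.0558 and 0.0561) or without any 1 knockout (0.126 to 0.217), and Lrrn4 did not without control 2 (0.0607). Wt1, which was not tested, had at most 49 reads in any library. It stood at 0.280, 1.28 and 2.15 CPM in knockouts, against 0.102, 0.198 and 0 CPM in controls 1 to 3. Upk3b stood at 79.1, 73.1 and 64.7 CPM in knockouts, against 0.355, 0.941 and 0 CPM in controls 1 to 3, whereas Msln stood at 20.4, 32.5 and 36.7 CPM in knockouts and at 46.6, 82.3 and 66.9 CPM in controls 1 to 3. The part of mesothelial or lung epithelial cells in the levels of Cdh1, Epcam, Cdh2 and Vim was not tested.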

How the data were processed

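Messenger RNA of 3 Keap1 knockout and 3 control tumours was counted per Ensembl gene. The deposited file holds raw counts, and the submitters' processing notes name STAR as aligner and mm39 as build. The sources used here do not give the counting tool, annotation release or strand setting. The authors' deposited table of their comparison holds a mean signal of normalized counts, log2 fold changes, a Wald score and p-values per symbol, made with DESeq2 per the file headers. Its log2 fold changes of the 10 genes have the sign of the counts, positive for higher in knockouts.

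Symbols came from a table of gene names that matched 17548 of 17901 tested identifiers. Genes were filtered with filterByExpr, scaled by TMM and tested with edgeR 4.0.16 (quasi-likelihood, robust, two-sided, genotype as the only term, R 4.3.3) with Benjamini-Hochberg adjustment over all genes tested. The SE is the log2 fold change divided by the square root of F. Lengths are unions of exons in GENCODE M21, an annotation of an earlier build than mm39, so no gene coordinates are given. Promoter windows carry the coordinates of their own build. The test was also run on simulated counts with the same dispersion for every gene in both groups. That run does not show how the test behaves where controls spread more than knockouts, as they did here.

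The 10 genes, the 6 lists, the cell type markers and the tests were chosen with earlier results of these data known. In each list, genes past the threshold (at most 4) or else the 2 with the smallest p were named, and further genes (Cdh11, Cdh24, Ctnnb1, Ctnna1, Ctnna2, Ctnna3, Ctnnd1, Esrp2, Foxq1, Klf8, Nqo1, S100a4, Tagln, Tgfb1, Tgfb2, Tgfb3) were chosen after their values were seen. As alternatives, scaling was by RLE or the upper quartile, the filter was dropped or set at 1 CPM in at least 3 samples, DESeq2 1.42.0 or limma voom (limma 3.58.1) took the place of edgeR, each library was left out in turn, and the sample number entered as a block. No library was left out of the comparison. Values of some genes that the naming rule covers are not reported here.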

Additional observations from a re-analysis of the deposited data

How the results depend on the processing

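Over the whole table edgeR called 771 genes, and 787, 797, 943 and 1067 under RLE scaling, upper-quartile scaling, the 1 CPM filter and limma voom. DESeq2 called 4642, edgeR without a filter 465, and 0 to 3209 were called without any 1 library, with 0, 0 and 2 without knockouts 2, 3 and 1 (3372, 3321 and 3758 at an unadjusted p below 0.05) and 3209 without control 3. Sample numbers pair nothing by the labels, and deviations of same-numbered samples correlated at 0.0176, 0.000120 and 0.0507. With the number as a replicate block edgeR called 0 genes, with 4026 at an unadjusted p below 0.05, and 0 of the TGF-beta list. Without a filter that list had 0 calls too. DESeq2 called 3 other cadherins, 3 catenins and partners, 1 epithelial gene, 4 other transition factors, 4 mesenchymal genes and 9 of the TGF-beta list. Without any 1 library edgeR called 0 to 2 other cadherins, 0 to 2 catenins and partners, 0 to 7 epithelial genes, 0 to 3 transition factors, 0 to 4 mesenchymal genes and 0 to 10 of the TGF-beta list. The causes were not tested.

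Without any 1 library the log2 fold change ran from -0.16 to 0.65 for Cdh1, -0.18 to 0.61 for Epcam, -5.58 to -1.46 for Cdh3, -1.67 to -0.37 for Vim, -2.55 to -0.18 for Snai1, -5.09 to -3.21 for Snai2, -6.74 to -2.70 for Twist1, -3.05 to -1.93 for Zeb1, -2.46 to -1.73 for Zeb2 and -8.10 to -7.13 for Cdh2. Cdh1 and Epcam changed sign without control 3. Under the other 7 alternatives all 10 kept their direction, but limma voom and the replicate block moved Cdh3 to -2.68 and -2.77, Snai1 to -1.26 and -1.22, Cdh1 to 0.69 and 0.65 and Epcam to 0.37 and 0.36. With 2 to 39 reads, levels of Cdh2, Snai2 and Twist1 in single knockouts are limited by depth.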
